A study of Mus musculus with 3 samples.

Results

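miR-1a and miR-133a, miRNAs of differentiated muscle fibers, were followed here through the first days after muscle injury. The 5 mature arms of these miRNAs (mmu-miR-1a-3p, mmu-miR-1a-1-5p, mmu-miR-1a-2-5p, mmu-miR-133a-3p and mmu-miR-133a-5p, written below without the species prefix) were taken by name from the 1138 mature mouse miRNAs that were measured. All 5 arms had at least 1 read in each of the 3 libraries. The libraries came from the tibialis anterior (TA), a muscle of the shin, of wild type C57BL/6 mice aged 10 weeks per the labels. One library was taken at day 0, and the other libraries at day 1 and day 3 after intramuscular cardiotoxin (CTX), which comes from snake venom and kills muscle fibers. The paper calls the day 0 muscle uninjured, whereas the labels name saline as the control injection without saying which mice received it. Each library was a pool of 4 samples with no second library beside it, so the spread between mice is unknown, and every test below compares libraries and not conditions.

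An miRNA is cut from a hairpin, which can give a 5p arm and a 3p arm, and the arm loaded into Argonaute pairs with target mRNAs mainly through its seed, the bases 2 to 8. miR-1 and miR-133 are transcribed together in differentiated skeletal and cardiac muscle under the control of SRF, MEF2 and MyoD. In cultured myoblasts miR-1 is known to promote differentiation, and miR-133 to favor proliferation. miR-206 and miR-133b are their close relatives from another cluster, which is active in skeletal muscle and in its regeneration.

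Sequences of 1 of the 5 arms and of the arms of the related miRNAs were read from RefSeq (GRCm38.p6). They are shown because the arms of miR-206 and miR-133b are compared with those of miR-1a and miR-133a below. They are written 5′ to 3′ with the seed in capitals.
miR-1a-1-5p: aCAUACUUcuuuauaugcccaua
miR-206-5p: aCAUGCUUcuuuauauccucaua
miR-206-3p: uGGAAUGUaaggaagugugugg
miR-133b-5p: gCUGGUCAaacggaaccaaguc
miR-133b-3p: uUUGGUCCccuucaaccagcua
miR-1a-1-5p and miR-206-5p shared 20 of 23 bases and differed by A5G, G17C and C19U, counted from 1 at the 5′ end with the base of miR-1a-1-5p first. A5G lies in the seed. miR-1a-1-5p lies at chr2:180389057-180389079, miR-206-5p at chr1:20679017-20679039, miR-206-3p at chr1:20679055-20679076, miR-133b-5p at chr1:20682797-20682818 and miR-133b-3p at chr1:20682834-20682855, each on the plus strand.

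In GRCm38 (GENCODE M21), Mir1a-1 lies on the plus strand at chr2:180389048-180389124, and Mir133a-2 follows 9254 bases later at chr2:180398379-180398482. Neither overlaps another gene of that annotation, and RefSeq places both within the lncRNA Mir1a-1hg. The second pair lies on the minus strand of chromosome 18, with Mir133a-1 at chr18:10782909-10782976 and Mir1a-2 at chr18:10785481-10785552, 2504 bases apart. Both hairpins of that pair are in introns of the lncRNA Mir133a-1hg, on the same strand, and of Mib1, on the opposite strand. miR-1a-3p is cut from both Mir1a hairpins, and its reads cannot be assigned to either, whereas miR-1a-1-5p and miR-1a-2-5p are counted separately. Both arms of miR-133a are likewise cut from a pair of hairpins. A further hairpin, Mir1b, spans chr18:10785446-10785567 on the plus strand and so covers Mir1a-2 on the opposite strand.

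Each library held 6421056 to 9795076 miRNA reads. Levels are given as CPM (reads per 1000000 miRNA reads of the library) with 95% Wilson intervals, and fold changes as log2 ratios of CPM with exact conditional 95% intervals. PCR copies count as separate reads, so the intervals cover counting error only. A level of 3 reads, 0.306 to 0.467 CPM, was taken as the limit of detection. An miRNA was called when it changed at least 2-fold with an adjusted p of at most 0.001 (Fisher's exact test, Benjamini-Hochberg adjustment over all miRNAs with a read in either library). These are the thresholds of the paper's methods.

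At day 0, the 5 arms together held 26.0% of all miRNA reads (95% interval 25.9 to 26.0). Their share was 8.61% at day 1 (8.59 to 8.63) and 9.55% at day 3 (9.53 to 9.56). In the deposited expression values, which are described below, the share was 9.85%, 6.24% and 5.50%, so the drop was smaller there and day 3 stood below day 1. In a share of bulk muscle reads, fewer fibers, fewer miRNA molecules per fiber and more miRNA from other cells cannot be told apart. Nearly all of these reads belonged to the 3p arms. At each time point the order from highest to lowest was miR-1a-3p, miR-133a-3p, miR-1a-1-5p, miR-133a-5p and miR-1a-2-5p, and the intervals of the last pair overlapped in each library.

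miR-1a-3p, the functional arm of miR-1, had 1987261 reads at day 0, 474135 at day 1 and 862904 at day 3. Its level was 233587 CPM at day 0 (233303 to 233872), 73841 CPM at day 1 (73639 to 74043) and 88096 CPM at day 3 (87918 to 88273). It was therefore highest at day 0, lowest at day 1 and slightly higher again at day 3. By abundance it ranked 1 of all miRNAs at day 0, ahead of miR-22-3p with 210971 CPM, and 3 at both later times. At day 3 it stood behind miR-206-3p and miR-22-3p.

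miR-133a-3p, the functional arm of miR-133a, had 220082 reads at day 0, 78481 at day 1 and 71895 at day 3. Its level was 25869 CPM at day 0 (25762 to 25976), 12222 CPM at day 1 (12138 to 12308) and 7340 CPM at day 3 (7287 to 7394). Unlike miR-1a-3p, it was lower at day 3 than at day 1. Its rank by abundance went from 7 at day 0 to 21 at day 1 and 24 at day 3.

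The 5p arms are the passenger strands of these hairpins and were rare. miR-1a-1-5p had 657 reads at day 0, 182 at day 1 and 270 at day 3, which gave 77.2 CPM (71.5 to 83.4), 28.3 CPM (24.5 to 32.8) and 27.6 CPM (24.5 to 31.1). The intervals of days 1 and 3 overlapped, and both lay below that of day 0. miR-133a-5p had 20 reads at day 0, 7 at day 1 and 14 at day 3, or 2.35, 1.09 and 1.43 CPM. miR-1a-2-5p had 12 reads at day 0, 1 at day 1 and 6 at day 3, or 1.41, 0.156 and 0.613 CPM. The day 1 value of miR-1a-2-5p was under the limit of detection, and the 3 intervals of miR-133a-5p overlapped one another.

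**Figure D1:**
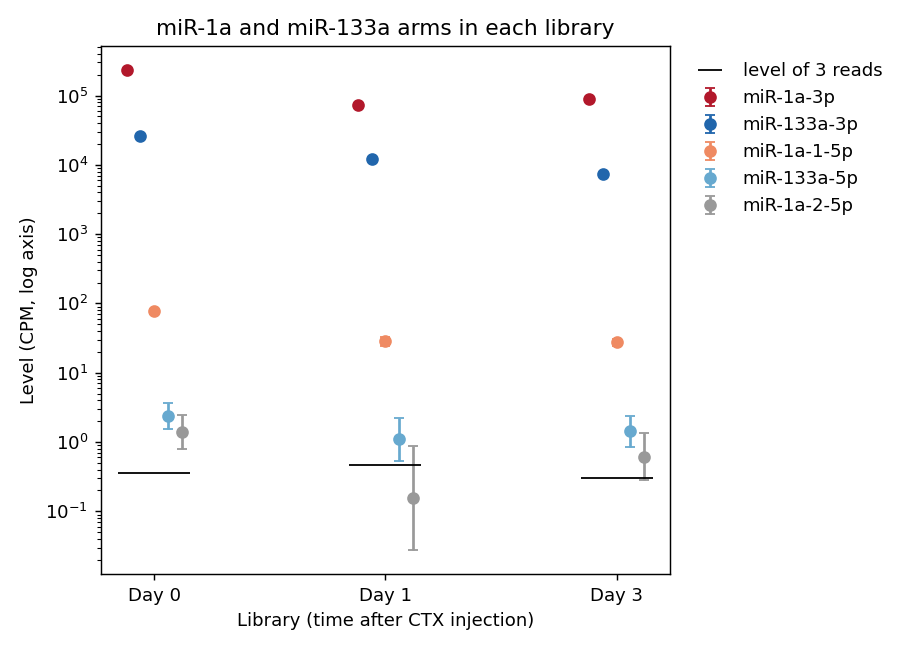
Level of each arm of miR-1a and miR-133a in the 3 libraries, in CPM on a log axis, with 95% Wilson intervals for counting error and a black line at the level of 3 reads. miR-1a-3p and miR-133a-3p stand at 7340 CPM or more in every library, miR-1a-1-5p stands at 27.6 to 77.2 CPM, and the other 5p arms are near the limit of detection.

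The first comparison addressed which of these miRNAs had changed within a day of injury, when damaged fibers are being cleared. At day 1, miR-1a-3p was 3.16-fold lower than at day 0 (log2 fold change -1.66, 95% interval -1.67 to -1.66), and miR-133a-3p was 2.12-fold lower (-1.08, -1.09 to -1.07). miR-1a-1-5p was 2.72-fold lower (-1.45, -1.69 to -1.21; adjusted p = 1.4e-37, Fisher's exact test). These 3 arms were called lower. For miR-1a-2-5p the log2 fold change was -3.18 (-8.60 to -0.42; adjusted p = 0.023, Fisher's exact test), and for miR-133a-5p it was -1.11 (-2.59 to 0.19; adjusted p = 0.15, same exact test), and neither passed the threshold. Of all 998 miRNAs tested, 4.31% were called lower at day 1, against 3 of these 5.

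By a 2-fold change alone, without the test, all 5 arms were lower. Of the 532 miRNAs with 10 reads in either library, 12.0% were lower and 55.3% higher. miR-1a-2-5p and miR-133a-5p reached 10 reads at day 0 alone, so this filter favored a fall for them and their part carries no weight. With 10 reads required in both libraries and the test applied, the 3 arms left were called lower, as were 10.4% of 393 miRNAs. The median log2 fold change of the 393 miRNAs reaching 10 reads at both times was 0.90. The 3 arms among them were at -1.66 (miR-1a-3p), -1.45 (miR-1a-1-5p) and -1.08 (miR-133a-3p). Of those 393 miRNAs, 14 had a lower fold change than miR-1a-3p and 37 a lower one than miR-133a-3p. CPM is a share of the reads, so the loss of abundant miRNAs raises the share of the rest. Without the reads of these 5 arms in the totals, the log2 fold change was -1.97 for miR-1a-3p and -1.39 for miR-133a-3p. With edgeR's TMM factors these values were -2.61 and -2.03, so the scaling set the size of the change but not its direction. Those factors moved the median of the 393 miRNAs from 0.90 to -0.04. TMM factors also moved the calls among all tested miRNAs from 43 lower and 250 higher to 107 lower and 129 higher. Among the 5 arms, 4 were then called lower in place of 3, since miR-1a-2-5p passed the threshold at -4.12.

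The second comparison addressed day 3, when myoblasts proliferate and begin to differentiate. miR-133a-3p was now 3.52-fold lower than at day 0 (log2 fold change -1.82, -1.83 to -1.81), and miR-1a-3p was 2.65-fold lower (-1.41, -1.41 to -1.40). miR-1a-1-5p was 2.80-fold lower (-1.49, -1.70 to -1.28; adjusted p = 4.3e-50, Fisher's exact test). These 3 arms were again called lower, where 4.36% of the 1056 miRNAs tested were called lower. miR-1a-2-5p (-1.20, -2.90 to 0.32) and miR-133a-5p (-0.72, -1.82 to 0.34) did not pass the threshold, with adjusted p = 0.19 and 0.30 by the same exact test.

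The median of the 407 miRNAs reaching 10 reads at both times was 0.93 at day 3. The 4 arms among them were at -1.41 (miR-1a-3p), -1.49 (miR-1a-1-5p), -1.82 (miR-133a-3p) and -0.72 (miR-133a-5p). Of those 407, 28 had a lower fold change than miR-1a-3p and 15 a lower one than miR-133a-3p. By a 2-fold change alone 4 of the 5 arms were lower, where 10.0% of 569 miRNAs were lower and 58.5% higher. Of these arms, miR-1a-2-5p reached 10 reads at day 0 alone, so this filter favored a fall for it and its part carries no weight. With 10 reads required in both libraries and the test applied, 3 of the 4 arms left were called lower, as were 10.8% of 407 miRNAs. TMM factors moved the median of those 407 miRNAs from 0.93 to 0.01. With them the values were -2.33 for miR-1a-3p and -2.74 for miR-133a-3p, and 109 miRNAs were called lower and 165 higher in place of 46 and 276. The comparisons of days 1 and 3 share the day 0 library, so a departure of that library would move both.

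The calls of the 3p arms were made on the read counts. The files also give an expression value for each miRNA, of unstated origin, which was near the read count for rare miRNAs and far below it for abundant ones. For miR-1a-3p it was 8.09% of the reads at day 0, 28.2% at day 1 and 17.6% at day 3. In these values, taken as deposited with no further scaling, miR-1a-3p was at -0.26 on the log2 scale at day 1 and -0.08 at day 3, and miR-133a-3p was at -0.77 and -0.89, so that neither was called. The expression values summed to 2583553 at day 0, 3017586 at day 1 and 3688064 at day 3. Divided by these totals, miR-1a-3p was at -0.49 and -0.59 and was not called, and miR-133a-3p was at -0.997 at day 1, just short of 2-fold, and at -1.40 at day 3, where it was called lower. The 5p arm miR-1a-1-5p, whose expression values were 99.2% to 100% of its reads, stayed called lower at both days with and without that division. In all these calls only the fold change came from the expression values, and the test was that on the read counts.

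**Figure D2:**
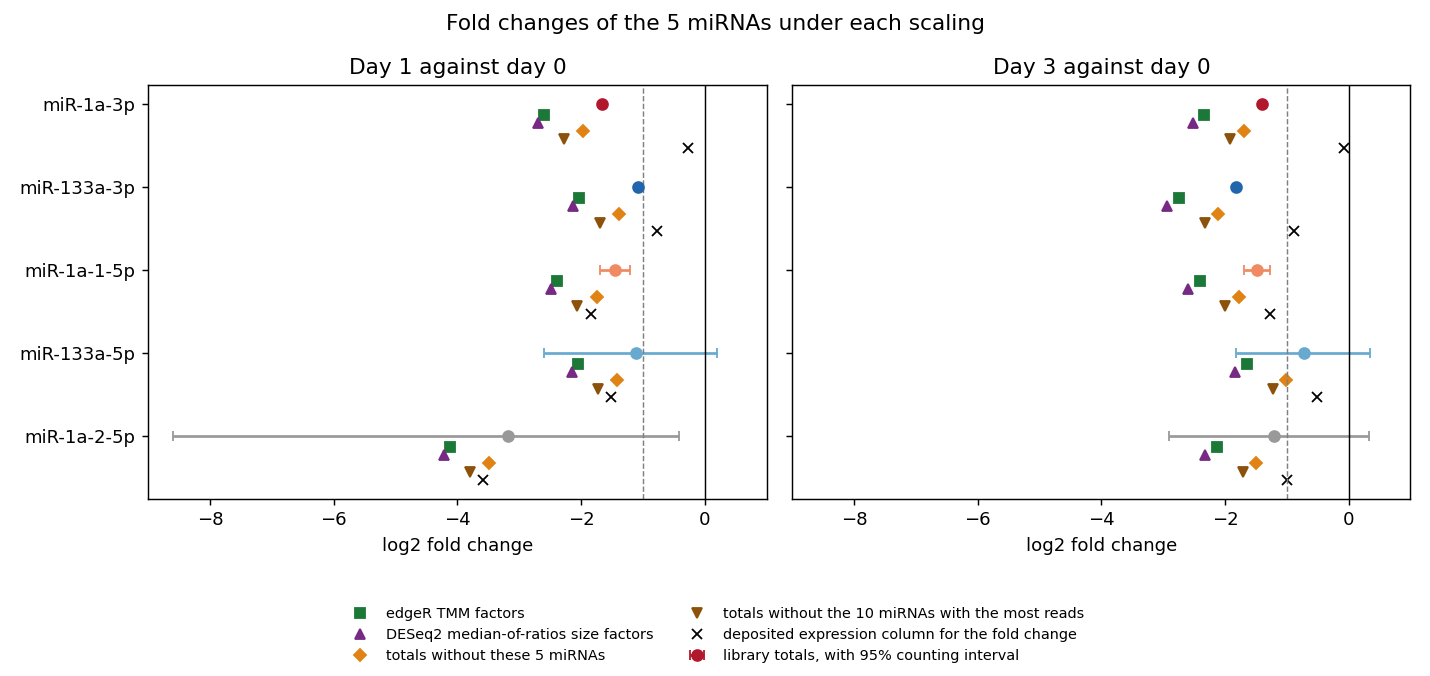
Log2 fold change of each arm at day 1 and at day 3 relative to day 0, with library totals (circles, with exact 95% counting intervals), with each other scaling and with the deposited expression column, unscaled. The dashed line marks a 2-fold decrease. All scalings of the reads place the 5 arms below 0, and the crosses of miR-1a-3p lie near 0.

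Comparing day 3 with day 1 shows how the pair came apart. miR-1a-3p was 1.19 times its day 1 level at day 3 (log2 fold change 0.25, 0.25 to 0.26), and miR-133a-3p was 1.67-fold lower (-0.74, -0.75 to -0.72). Neither change reached 2-fold, and 0 of the 5 arms were called, where 7.16% of the 1104 miRNAs tested were called lower and 9.60% higher. Among the 4 arms with 10 reads in either library, a 2-fold change alone also gave 0, where 17.7% of 583 miRNAs were lower and 25.0% higher. For miR-1a-1-5p the log2 value was -0.04 (-0.32 to 0.24). miR-1a-2-5p, with 1 read at day 1 and 6 at day 3, was at 1.98 (-1.07 to 7.499), and miR-133a-5p at 0.39 (-1.01 to 1.94). In the deposited expression values as they stand, miR-1a-3p was at 0.19 and miR-133a-3p at -0.12. With these values divided by their library totals, miR-1a-3p was at -0.10 and miR-133a-3p at -0.41, so the direction of miR-1a-3p turned only with that division.

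A ratio of miRNAs within a library does not depend on the scaling between libraries. There were 9.03 reads of miR-1a-3p for each read of miR-133a-3p at day 0 (8.99 to 9.07), 6.04 at day 1 (6.00 to 6.09) and 12.0 at day 3 (11.9 to 12.1). Relative to miR-133a-3p, miR-1a-3p thus fell 1.49-fold by day 1 and then rose 1.99-fold to day 3, beyond counting error in each of the 3 pairs of libraries. How reads that match a near-identical or overlapping miRNA were counted is not given in the sources used here. With miR-133b-3p added to miR-133a-3p the ratio was 8.62, 5.92 and 9.81, and with miR-1b-5p added to miR-1a-3p it was 10.03, 6.62 and 12.9, which kept the order of the days. In the deposited expression values the ratio was 1.73 at day 0, 2.46 at day 1 and 3.03 at day 3, so the fall at day 1 was not seen there.

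The share of the passenger strand was also measured within each library. For miR-1a, the 5p arms made up 33.7 of every 100000 reads of both arms at day 0 (31.2 to 36.3), 38.6 at day 1 (33.4 to 44.6) and 32.0 at day 3 (28.4 to 36.0). The intervals overlapped at all times (adjusted p = 0.16 for day 1 and 0.56 for day 3 against day 0, Fisher's exact test on the reads). In the reads, a difference between the arms in their fall was not detectable at this depth. In the deposited expression values the 5p share of miR-1a was instead 411.5 of every 100000 at day 0, 136.7 at day 1 and 180.3 at day 3, so it was lower after injury there. For miR-133a, the 5p arm made up 9.09 of every 100000 reads at day 0 (5.88 to 14.0), 8.92 at day 1 (4.32 to 18.4) and 19.5 at day 3 (11.6 to 32.7). The share at day 3 was 2.14 times that at day 0, with an adjusted p of 0.078 by the same exact test, and it rested on 14 reads. In the expression values the share was 21.5 of every 100000 at day 0, 12.9 at day 1 and 27.9 at day 3, so day 3 stood less far above day 0 there.

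The separate 5p arms are the only reads that distinguish the pair of Mir1a hairpins. miR-1a-1-5p, from chromosome 2, supplied 98.2% of these reads at day 0 (96.9 to 99.0), 99.5% at day 1 (97.0 to 99.9) and 97.8% at day 3 (95.3 to 99.0). The shares did not differ detectably at this depth (adjusted p = 0.38 for day 1 and 0.84 for day 3 against day 0, Fisher's exact test), with 12, 1 and 6 reads of miR-1a-2-5p. Among the 18 exact tests on such ratios and shares, 9 passed an adjusted p of 0.001, and these were the tests of the 3p arms against each other and against their relatives.

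miR-206-3p and miR-133b-3p are the relatives of miR-1a-3p and miR-133a-3p. miR-206-3p had 105359 reads at day 0, 30697 at day 1 and 1763128 at day 3, or 12384, 4781 and 180001 CPM. It belongs to the miR-1 family. miR-1a-3p held 94.97% of the reads of the pair at day 0 (94.94 to 94.99), 93.9% at day 1 (93.9 to 94.0) and 32.9% at day 3 (32.8 to 32.9). Between day 1 and day 3, reads of miR-1a-3p relative to miR-206-3p fell 31.6-fold. In the expression column that ratio of miR-1a-3p to miR-206-3p went from 5.12 at day 1 to 0.905 at day 3, a smaller fall, and the share of miR-1a-3p was higher at day 1 (83.7%) than at day 0 (71.8%), against the direction in the reads. The sum of the pair was 24.6% of all miRNA reads at day 0, 7.86% at day 1 and 26.8% at day 3. Relative to day 0 the sum was at 0.12 on the log2 scale at day 3, and with TMM factors at -0.80, so its direction depended on the scaling, while miR-1a-3p alone was lower under each.

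The miR-133 pair behaved differently. miR-133b-3p had 10552 reads at day 0, 1585 at day 1 and 16099 at day 3, or 1240, 246.8 and 1644 CPM. miR-133a-3p held 95.4% of the reads of the pair at day 0 (95.3 to 95.5), 98.0% at day 1 (97.9 to 98.1) and 81.7% at day 3 (81.4 to 82.0). It remained the larger part of the pair in every library. The sum of the pair was 2.71% of all reads at day 0, 1.25% at day 1 and 0.898% at day 3, so at both days it stayed below its day 0 share, with TMM factors as well (-2.06 and -2.52 on the log2 scale).

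**Figure D3:**
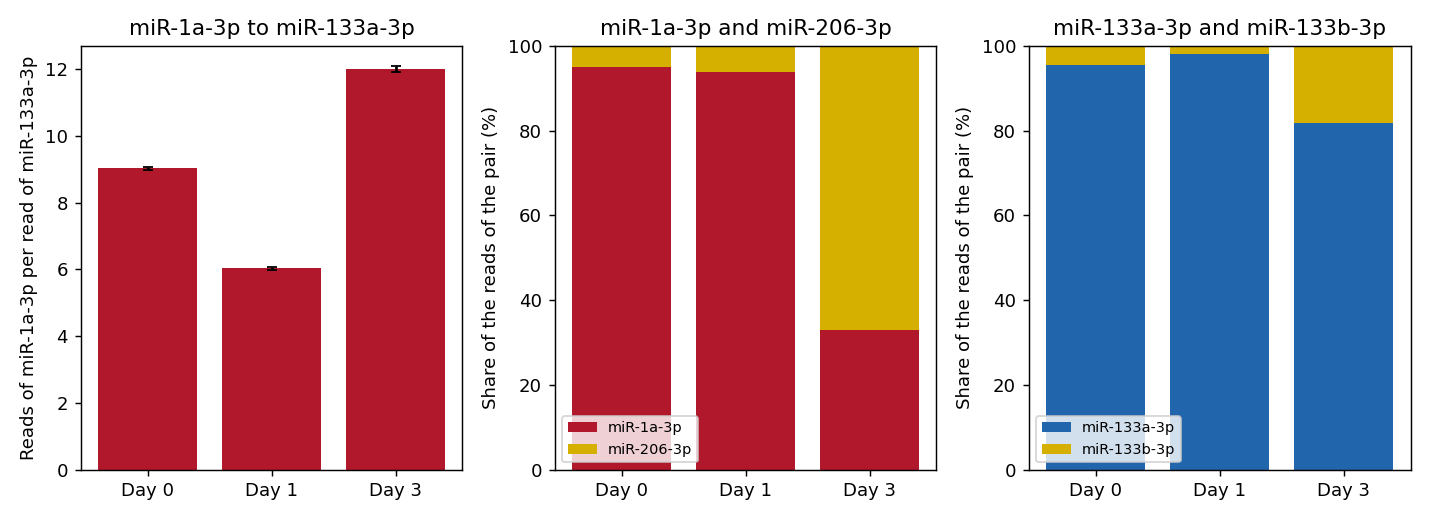
Left, reads of miR-1a-3p per read of miR-133a-3p in each library, with 95% intervals for counting error. Middle and right, the share of each 3p arm in the reads of the pair it forms with its relative, in percent: miR-1a-3p drops from 93.9% at day 1 to 32.9% at day 3, and miR-133a-3p from 98.0% to 81.7%.

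The share of the 5p arm was also measured for the relatives. miR-133b-5p went from 10 reads at day 0 to 28 at day 1 and 8779 at day 3, and accounted for 35.3% of the miR-133b reads at day 3 (34.7 to 35.9), where the 5p arm of miR-133a made up 19.5 of every 100000 reads. miR-206-5p had 0, 2 and 148 reads, where the limit at day 0 was 0.353 CPM. It made up 6.51 of every 100000 miR-206 reads at day 1 (1.79 to 23.8) and 8.39 at day 3 (7.15 to 9.86). Its interval overlapped that of miR-133a-5p at day 1 and lay below it at day 3, but in the expression values miR-206-5p was at 86.1 of every 100000 at day 3 and miR-133a-5p at 27.9, which turns their order.

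The miRNA counted next to miR-133a-3p at day 0 was miR-1b-5p, from the hairpin that covers Mir1a-2 on the opposite strand. It had 219729 reads at day 0, 45165 at day 1 and 62076 at day 3, or 25827, 7034 and 6337 CPM. These reads were 11.1% of the number of miR-1a-3p reads at day 0, 9.53% at day 1 and 7.19% at day 3. miR-1b-5p was called lower at both days, with log2 fold changes of -1.88 (-1.89 to -1.86) and -2.03 (-2.04 to -2.01), which are larger decreases than those of miR-1a-3p. Whether the strand of a read was used in counting is not given in the sources used here, so reads of Mir1b and Mir1a-2 cannot be told apart. Summing both miRNAs gave log2 fold changes of -1.68 at day 1 and -1.46 at day 3, and the calls were the same.

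Of 17 other miRNAs of the muscle list, which holds the arms of miR-1b, miR-133b, miR-133c, miR-206, miR-208, miR-486 and miR-499, 14 were analysed. At day 1, 6 were called lower and 1 higher, with a median log2 fold change of -1.26 over the 13 with reads in both libraries. At day 3, 5 were called lower and 3 higher, with a median of -0.79. The background was 4.31% lower and 25.1% higher at day 1, and 4.36% and 26.1% at day 3. Those called lower at day 1 were miR-206-3p, miR-133b-3p, miR-1b-5p, miR-486a-5p, miR-486b-5p and miR-486a-3p. At day 3 they were miR-1b-5p, both miR-486 5p arms, miR-486a-3p and miR-499-5p, which lies in an intron of the myosin gene Myh7b and was at 316.1 CPM at day 0, 183.6 at day 1 and 80.2 at day 3. miR-486 is known from red blood cells as well as from muscle. miR-486a-5p and miR-486b-5p had equal read counts in all 3 libraries and carry the information of 1 miRNA. Those called higher were miR-133b-5p at day 1 and miR-206-3p, miR-206-5p and miR-133b-5p at day 3. In the deposited expression values miR-206-3p went from 63257 at day 0 to 168191 at day 3, a smaller rise than in the reads. The library totals of these values also rose, from 2583553 to 3688064. With TMM factors 7 of the 14 were called lower and 0 higher at day 1, so the call of miR-133b-5p at day 1 was lost. At day 3, 6 were lower and 3 higher. Of all miRNAs tested, these factors gave 10.7% lower and 12.9% higher at day 1, and 10.3% and 15.6% at day 3.

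The miRNAs whose course was most like that of each 3p arm were sought among the 112 others with at least 1000 reads at day 0, by the Euclidean distance between the pairs of log2 fold changes at days 1 and 3. This measure rests on 3 libraries and describes likeness alone. Nearest to miR-1a-3p were miR-486a-3p (distance 0.32), both miR-486 5p arms (0.40), miR-378a-5p (0.50) and miR-328-3p (0.52). Nearest to miR-133a-3p were miR-29c-3p (0.25), miR-499-5p (0.34), miR-378b (0.37) and both miR-486 5p arms (0.40). miR-133a-3p was number 7 by likeness to miR-1a-3p, and miR-1a-3p number 13 by likeness to miR-133a-3p, at a distance of 0.71. The 11 miRNAs with at least 100000 reads at day 0 were also counted, a choice that favors later decreases. Of these, 4 were at least 2-fold lower at day 1 and 5 at day 3. miR-1a-3p and miR-133a-3p were among them at both days, as was miR-1b-5p. Of all miRNAs with 10 reads in either library, 12.0% were at least 2-fold lower at day 1 and 10.0% at day 3.

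**Figure D4:**
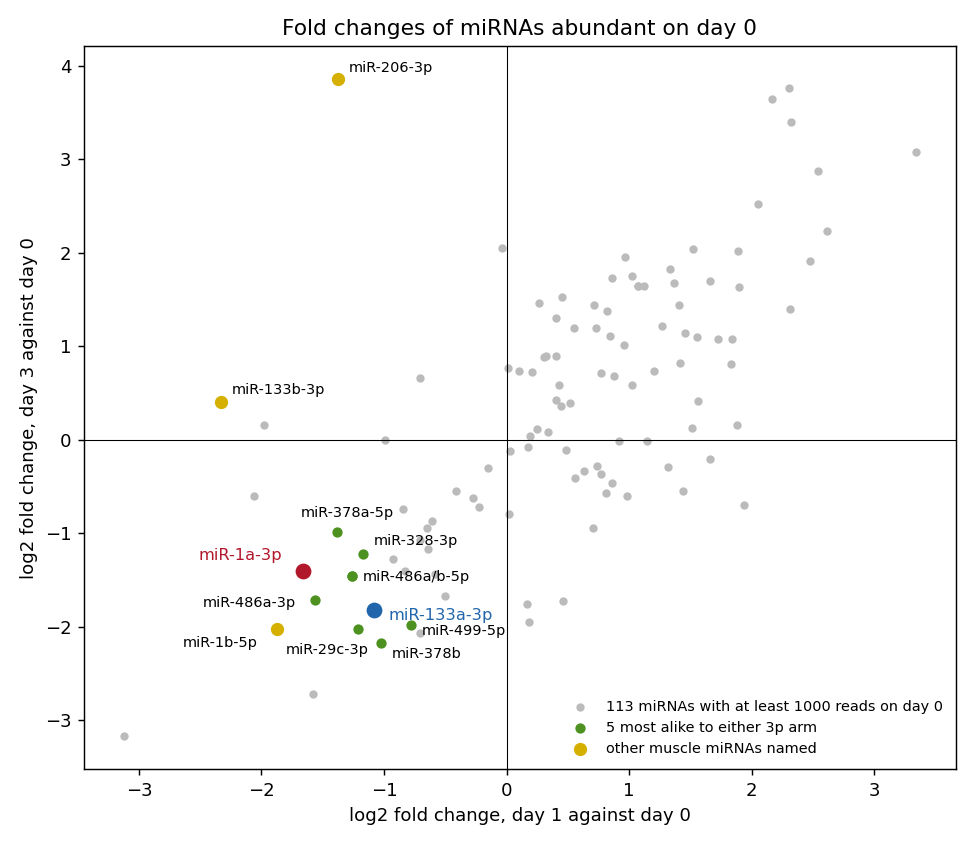
Log2 fold change at day 3 against that at day 1, both relative to day 0, for the miRNAs with at least 1000 reads at day 0, one point each. miR-1a-3p (-1.66, -1.41) and miR-133a-3p (-1.08, -1.82) lie at the lower left with miR-1b-5p and the miR-486 arms, whereas miR-206-3p lies at -1.37 and 3.86.

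Marker miRNAs of other cells moved with the libraries as well. The 8 leukocyte miRNAs of the marker list summed to 5495 CPM at day 0, 21609 at day 1 and 10071 at day 3, all were detected in each library, and 6 of 8 were called higher at each day. Most of the day 0 sum was miR-150-5p, at 4733, 8307 and 3197 CPM, which was not called at either day. miR-223-3p, called higher at both, was at 97.8, 7815 and 1896 CPM. The 3 erythroid miRNAs summed to 7145, 25335 and 12563 CPM, with 3 and then 0 called higher. The 6 fibroblast and vascular miRNAs summed to 94764, 195364 and 88935 CPM, with 4 and then 3 called higher. This sum was mostly miR-126a-3p (57836, 127912 and 57349 CPM) and miR-143-3p (34278, 62189 and 24829 CPM). Those called higher at day 3 were miR-199a-3p, miR-199a-5p and miR-214-3p, whereas miR-126a-3p, miR-143-3p and miR-145a-5p were not called and stood at or below their day 0 levels. The 7 miRNAs of epithelium and liver, which mark other tissues, summed to 16.5, 250.9 and 136.9 CPM, with 7 and then 6 called higher and none at 0. Of all miRNAs tested, 25.1% were called higher at day 1 and 26.1% at day 3. With TMM factors, where 12.9% and 15.6% of all were called higher, 6 of 8 leukocyte miRNAs were still called higher at both days, but 0 of the 3 erythroid, 1 of the 6 fibroblast and vascular, and 4 and then 3 of the 7 epithelial and liver miRNAs. At day 3 those factors also gave 1 leukocyte and 2 fibroblast and vascular miRNAs as lower, where 10.3% of all were called lower. The part of these cells in the lower levels of miR-1a and miR-133a was not tested.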

How the data were processed

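Small RNAs of 18 to 30 nucleotides from TA muscle were sequenced on the BGISEQ platform, with 4 samples pooled per library and 1 library per time point. The submitters' processing notes name HISAT, Bowtie2 and the build GRCm38.p6. The counting tool and its treatment of strand and of reads that fit several miRNAs are not given in the sources used here. The authors deposited for each mature miRNA a raw read count, without normalization. The deposited expression column was treated as a score, since how the authors made it is not stated. Calls with that column took the fold change from it and the adjusted p from the read counts.

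CPM, Wilson intervals, exact conditional intervals and Fisher's exact tests (two-sided, Benjamini-Hochberg over the miRNAs having 1 or more reads in either library, thresholds of 2-fold and 0.001) were computed with Python 3.11.15, numpy 2.4.6, pandas 2.3.3 and scipy 1.17.1, and plots with matplotlib 3.10.9. Scaling factors came from edgeR 4.0.16 (TMM) and DESeq2 1.42.0 in R 4.3.3, each followed by an exact conditional binomial test. The ratios and shares within libraries formed a separate family of 18 Fisher's exact tests. Depth was 8507580, 6421056 and 9795076 reads at days 0, 1 and 3. The calling was tested on simulated data.

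The 5 arms and the lists were chosen with earlier results of these data known. The named miRNAs were the 5 arms, the muscle list, the neighbors by abundance of the 3p arms and the 5 miRNAs most like each 3p arm. The abundant miRNAs with 100000 reads and the sums of paired miRNAs were added once their values had been seen. A planned grouping of reads by seed was replaced by the pairs miR-1a-3p with miR-206-3p and miR-133a-3p with miR-133b-3p. The study's other experiments were not analysed here.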

Additional observations from a re-analysis of the deposited data

How the results depend on the processing

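With 1 library per time point no replicate could be left out. No paired analysis was possible because each group has a single library. The 10 other settings chosen at the start and 3 added after seeing the data gave 189 values for the single arms. Under the first 10, 125 values kept their direction and their side of the threshold, 10 no longer passed it, 7 newly passed it and 2 reversed, and under the added 3, 40 kept both, 3 no longer passed the threshold and 2 reversed. The other scalings of the reads shifted all miRNAs of a comparison by the same amount. At day 1, 4 arms were called lower with TMM factors in place of 3, where 10.7% of all were. With DESeq2's size factors 5 arms were called lower at day 1, where 12.1% of all were. A 2-fold change alone, with at least 10 reads in either library, also gave 5, where 12.0% of 532 miRNAs were lower. Of these, miR-1a-2-5p and miR-133a-5p reached 10 reads at day 0 alone, so that filter favored their fall. With 10 reads required in both libraries, 3 of the 3 arms left were called lower, as were 10.4% of 393 miRNAs. With the deposited expression values as they stand 1 arm was called lower at day 1 and 1 at day 3, where 5.51% and 3.31% of all tested miRNAs were. With these values divided by their library totals the arms called lower were 1 and 2, where 6.21% and 5.59% of all were. With a 4-fold threshold 0 arms were called at both days, where 0.902% of all were called lower at day 1 and 1.33% at day 3. The log2 fold change of miR-1a-1-5p between days 3 and 1, near 0 in the reads, was 0.068 when the 10 most abundant miRNAs were left out of the totals and 0.56 in the expression values. In the divided expression values it was 0.27, and that of miR-1a-3p was -0.10. The grouping by seed was not run.

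In the expression values, the 5p arms of miR-1a were at 411.5, 136.7 and 180.3 of every 100000 at days 0, 1 and 3, unlike in the reads, and miR-133a-5p was at 21.5 at day 0. The ratio of miR-1a-3p to miR-133a-3p was 1.73, 2.46 and 3.03. With miR-1b-5p added it was 10.03, 6.62 and 12.9 in the reads, and with miR-133b-3p added 8.62, 5.92 and 9.81. miR-1a-3p held 71.8%, 83.7% and 47.5% of its pair with miR-206-3p in the expression values, and miR-133a-3p held 90.5%, 97.2% and 77.4% of its pair with miR-133b-3p. The 5 arms summed to 9.85%, 6.24% and 5.50%. The counts of all miRNAs called lower with DESeq2's size factors were 121 at day 1 and 124 at day 3, with 118 and 148 higher. With a 4-fold threshold they were 9 and 14 lower. The 1 to 20 reads of miR-1a-2-5p and miR-133a-5p limit what can be said of these arms.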
